A study of Mus musculus with 6 samples.

Results

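Cyp11a1 is the gene of the cholesterol side-chain cleavage enzyme, and this account follows it with 4 genes that serve the same reaction, Star, Fdx1, Fdxr and Nr5a2, across 3 stages of mouse T cell formation. Cyp11a1 was chosen by its signal on these arrays, which peaked in the middle stage, and the others for their role. Of the 5 genes, 4 were measured by a probe set linked to that single gene, out of 19938 genes in all; Fdxr was not analysed here. The HSC arrays (n = 2) hold RNA of bone marrow cells transduced with NUP98-HOXB4, a fusion protein that lets progenitors expand, and grown with IL6 and SCF. The ProT arrays (n = 2) hold such transduced cells after culture with the Notch1 ligand DLL4 and IL7, and the labels call them committed T cells. The DP arrays (n = 2) hold double positive thymocytes that formed after ProT cells were injected into a Rag2-/- mouse, a host that makes no T or B cells of its own past the early stages but keeps its stroma and myeloid cells. All 3 populations carry the fusion. The labels give no strain, age or duration and leave unsaid whether the 2 replicates are independent cultures or mice. The p-values therefore rest on the scatter of the replicate arrays, part or all of which can be technical.

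The enzyme encoded by Cyp11a1 sits in the inner mitochondrial membrane and cuts cholesterol to pregnenolone, the precursor of all steroid hormones. Its electrons pass from NADPH through the reductase Fdxr and the small iron-sulfur protein Fdx1, its substrate is brought across the mitochondrial membranes by Star, and in adrenal, gonad and gut the gene is driven by nuclear receptors of the NR5A family, Nr5a1 (SF-1) or Nr5a2 (LRH-1). Outside classical steroid tissues, Cyp11a1 is known from type 2 helper T cells and mast cells, and glucocorticoids matter to the thymus because double positive thymocytes are highly sensitive to them.

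The promoter table from RefSeq (GRCm38.p6) held 4 of the 5 genes, all but Star. The 250 bases before both listed starts of Cyp11a1, the gene that moved, and before the start of Fdx1, its electron donor that did not pass the test, are printed so that they can be set side by side. Capitals mark matches on either strand to 6 motifs. AGGTCA is the core that many nuclear receptors bind, NR5A members included. The longer form AAGGTCA, preferred by NR5A receptors, contains that core. GATA factors bind AGATAA among other sequences. A second GATA form searched was TGATAA. Other sequences with GATA in them were not searched, and the downstream Cyp11a1 window holds an unmarked agatag. The TATA box was searched as TATAAA. The cyclic AMP response element was TGACGTCA.
Cyp11a1, upstream start, chr9:57997774-57998023, plus strand: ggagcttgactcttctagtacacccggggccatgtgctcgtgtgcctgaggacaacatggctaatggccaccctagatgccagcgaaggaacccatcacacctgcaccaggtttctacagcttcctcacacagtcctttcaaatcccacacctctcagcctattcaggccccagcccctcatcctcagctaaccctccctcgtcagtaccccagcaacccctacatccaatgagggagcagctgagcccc
Cyp11a1, downstream start, chr9:58014702-58014951, plus strand: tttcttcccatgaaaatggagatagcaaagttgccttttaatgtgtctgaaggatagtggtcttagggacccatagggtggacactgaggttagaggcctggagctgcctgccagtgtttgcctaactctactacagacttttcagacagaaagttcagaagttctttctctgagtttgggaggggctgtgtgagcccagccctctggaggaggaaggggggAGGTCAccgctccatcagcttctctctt
Fdx1, chr9:51963603-51963852, minus strand: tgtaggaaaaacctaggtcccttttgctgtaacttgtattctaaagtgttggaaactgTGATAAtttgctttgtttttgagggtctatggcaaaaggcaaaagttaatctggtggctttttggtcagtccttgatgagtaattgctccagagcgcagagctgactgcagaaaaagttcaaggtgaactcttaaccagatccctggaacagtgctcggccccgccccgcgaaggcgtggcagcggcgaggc
The upstream start of Cyp11a1 had 0 matches to any of the 6, and the downstream start had 1, an AGGTCA that lies 23 to 28 bases before the start. Fdx1 had 1 TGATAA, 187 to 192 bases before its start, and the unprinted Fdxr window likewise had 1, at 172 to 177 bases. Nr5a2 had 5 matches before its upstream start and 0 before the other. Of the 5, 3 were to the GATA sequences and 1 to TATAAA, all on the minus strand, with the TATAAA at 176 to 181 bases. The other was to the nuclear receptor core, on the plus strand at 59 to 64 bases. Of all 32851 promoter windows of this length, 14% held AGGTCA, 4.08% AAGGTCA, 9.99% AGATAA, 7.94% TGATAA, 12.4% TATAAA and 1.55% TGACGTCA. These are matches of letters, not measured binding.

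Cyp11a1 was bright on both ProT arrays and dim on the other 4. Its log2 signal was 6.06 and 5.37 in HSC, 11.70 and 11.51 in ProT, and 5.77 and 5.83 in DP. The 2 ProT arrays stood far above all others, and the HSC and DP arrays overlapped, the DP arrays lying between those of HSC. The means were 5.71 ± 0.49 (SD, n = 2), 11.61 ± 0.14 and 5.80 ± 0.05, so that ProT exceeded HSC by 5.89 on the log2 scale (at least 59.4-fold) and DP by 5.81 (at least 56.0-fold). A fold is written as at least its size where the lower mean is below 7.17, the median of all gene values, because signals there were not shown to be above background. Such a fold does not allow for scatter between replicates. With 1 array left out, the excess of ProT over HSC ran from 5.55 to 6.24. These values chose the gene and are given without a test. In bulk RNA, fewer cells that carry the transcript and less of it per cell cannot be told apart. By its excess over the higher of the other means, 5.81 log2 units, Cyp11a1 ranked 5 among 19938 genes, of which 373 had an excess of 1 or more.

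**Figure D1:**
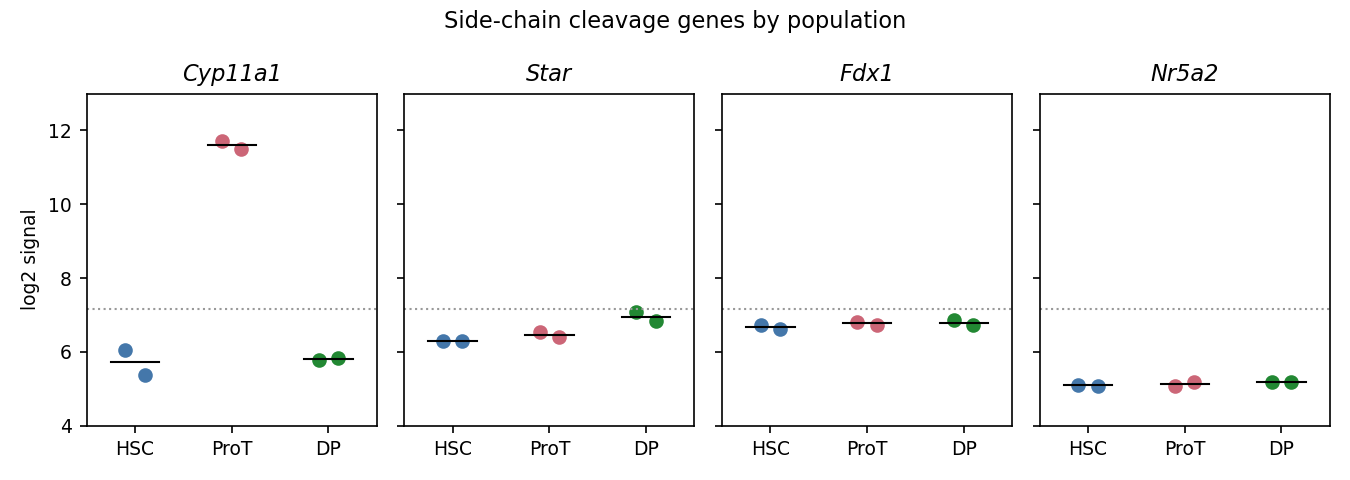
Log2 signal of the 4 measured genes on the 6 arrays (points; bars are means of 2 arrays; dotted line, the median of all gene values, 7.17). Cyp11a1 lies between 11.51 and 11.70 in ProT and between 5.37 and 6.06 elsewhere, while Star, Fdx1 and Nr5a2 stay below the dotted line on every array.

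The partners of the reaction had no such peak in ProT. Star, the cholesterol carrier whose supply limits steroid output in adrenal and gonad, gave 6.31 and 6.28 in HSC, 6.54 and 6.39 in ProT, and 7.07 and 6.83 in DP. Its arrays did not overlap between populations and were lowest in HSC and highest in DP, all below 7.17. ProT and HSC differed by 0.17 ± 0.11 on the log2 scale (standard error of limma, as for all differences; Benjamini-Hochberg adjusted p = 0.417), which did not pass the threshold of 0.05. DP exceeded ProT by 0.48 ± 0.11 (limma adjusted p = 0.0184) and HSC by 0.66 ± 0.11 (adjusted p = 0.00515), calls that 32.6% and 34.9% of all genes also received. The DP against ProT call was lost without ProT replicate 2 (0.41, limma adjusted p = 0.0839) and without DP replicate 1 (0.36, adjusted p = 0.099).

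Fdx1, the ferredoxin that hands electrons to mitochondrial P450 enzymes, gave 6.73 and 6.61 in HSC, 6.82 and 6.74 in ProT, and 6.85 and 6.74 in DP. The ProT and DP arrays interleaved, and all 6 lay within 0.24 log2 units. The differences were 0.10 ± 0.09 for ProT against HSC, 0.02 ± 0.09 for DP against ProT and 0.12 ± 0.09 for DP against HSC (limma adjusted p = 0.558, 0.926 and 0.362). Nr5a2, one of the receptors that switch on steroid genes, gave 5.10 and 5.09 in HSC, 5.07 and 5.18 in ProT, and 5.19 and 5.19 in DP. Its arrays spanned 0.13 log2 units, with ProT overlapping HSC, and its differences were 0.03 ± 0.08, 0.07 ± 0.08 and 0.10 ± 0.08 in the same order (limma adjusted p = 0.87, 0.577 and 0.386). A missed threshold does not show that Fdx1 and Nr5a2 were equal in the populations, and for probe sets this dim the measured differences may understate real ones.

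The genes of the pathway were taken from 7 lists with 98 members beside Cyp11a1, of which 84 were measured, Star, Fdx1 and Nr5a2 among them. The first step and the second share the ProT arrays, so their differences are not independent. Between ProT and HSC, 7 of the 84 rose and 5 fell, 14.3% against 14.7% called among all genes. Between DP and ProT 16 rose and 21 fell, 44% against 32.6% of all genes. Between DP and HSC 16 rose and 21 fell, where 16% of all genes were higher and 18.8% lower. Without DP replicate 1, 7 rose and 13 fell between DP and ProT and 10 and 13 between DP and HSC. Without DP replicate 2, 8 rose between DP and ProT and 11 fell between DP and HSC. Without HSC replicate 1, 11 fell between ProT and HSC, and after median centring 9. The median log2 difference of the 84 was -0.01 and 0.00 for the first 2 comparisons, and that of all genes -0.01 and 0.02. Of the 84, 32 lay below 7.17 on all 6 arrays. Tspoap1, Akr1c18, Fkbp5 and Ddit4 were called as highest in ProT, the shape of Cyp11a1, and Lipa as lowest; 4 of 84 stands against 4.17% of all genes with that shape, and 1 of 84 against 1.35%. The count lowest in ProT was 3 without HSC replicate 1, 2 without ProT replicate 2 and 2 after median centring.

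**Figure D2:**
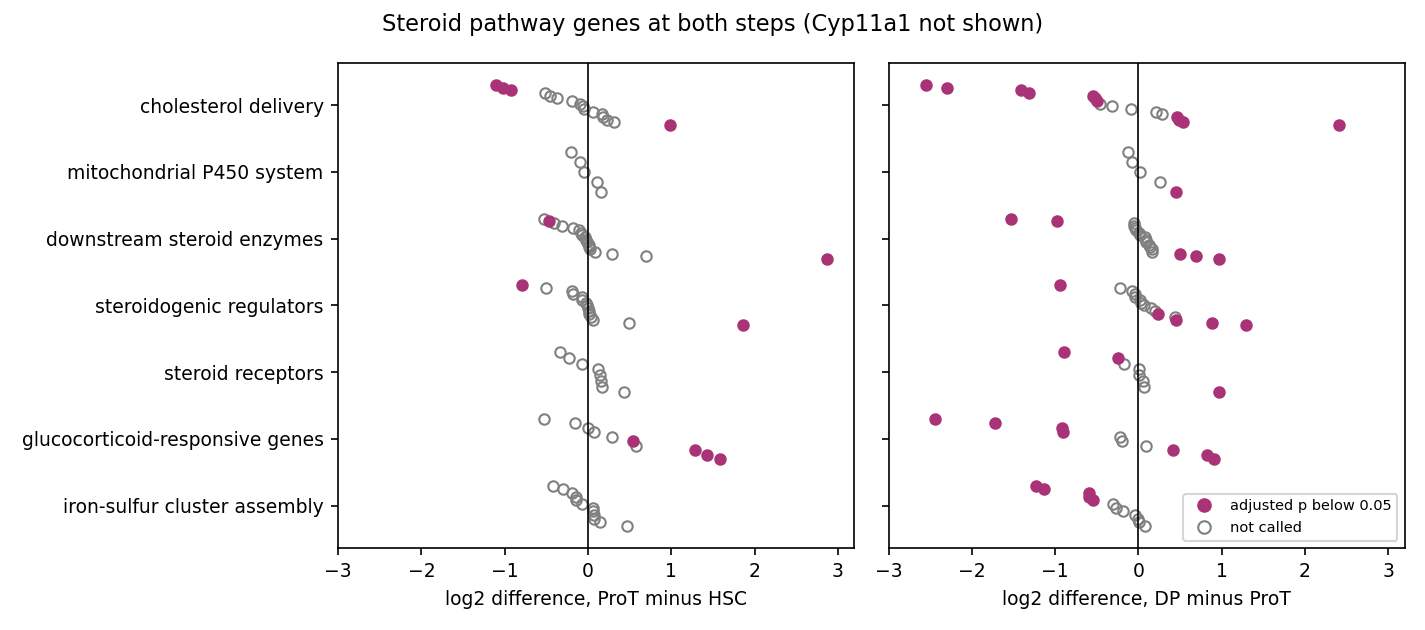
Log2 differences of the measured genes of 7 pathway lists (rows; 1 point a gene, filled where the adjusted p is below 0.05) for ProT minus HSC (left) and DP minus ProT (right). Most points of the first step lie near 0 and the largest rise is that of Akr1c18 at 2.87; in the second step Stard4 (-2.55), Zbtb16 (-2.44) and Lipa (2.41) lie farthest out.

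Among genes that bring cholesterol to the enzyme, more were called lower than higher at each step, as among all genes at the second. In ProT against HSC 1 of 16 rose and 3 fell, 6.25% and 18.8% beside 7.85% higher and 6.9% lower of all genes. Scarb1, the receptor that takes up cholesterol from high-density lipoprotein, gave 11.76 and 11.67 in HSC, 10.69 and 10.69 in ProT, and 8.46 and 8.32 in DP. It fell at both steps with no overlap (log2 differences -1.03 ± 0.08 and -2.30 ± 0.08; limma adjusted p = 0.000803 and 2.28e-05). Lipa, the lysosomal lipase that frees cholesterol from its esters, changed by -0.93 ± 0.08 and Stard5, a cytosolic sterol carrier, by -1.11 ± 0.23. The Stard5 call was lost without ProT replicate 1 (-1.21), ProT replicate 2 (limma adjusted p = 0.105) or either DP array (-1.11, limma adjusted p = 0.0955). The riser was Tspoap1, a binding partner of the outer mitochondrial membrane protein Tspo, with 7.53 and 7.46 in HSC, 8.44 and 8.51 in ProT, and 7.05 and 7.29 in DP. Its ProT arrays were the highest, with 0.99 ± 0.10 for ProT against HSC and -1.31 ± 0.10 for DP against ProT (limma adjusted p = 0.00192 and 0.000337). Tspo itself did not pass at either step (-0.51 ± 0.15 and -0.32 ± 0.15; limma adjusted p = 0.0778 and 0.165). Its first step was -0.30 without HSC replicate 1 and passed without HSC replicate 2 (-0.72), with the replicate block (adjusted p = 0.0442) and after median centring (-0.59), and its second without either HSC array (-0.32, limma adjusted p = 0.0325).

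In DP against ProT, 4 of the 16 cholesterol delivery genes rose and 7 fell, 25% and 43.8% beside 14.5% higher and 18.1% lower of all genes. Stard4, a carrier that moves cholesterol between membranes, gave 10.31 and 10.01 in HSC, 9.87 and 10.32 in ProT, and 7.70 and 7.38 in DP. HSC and ProT overlapped, and DP fell by 2.55 on the log2 scale (limma adjusted p = 0.000358). Atad3a, of the mitochondrial inner membrane, changed by -1.40 ± 0.22, the hormone-sensitive lipase Lipe by -0.55 ± 0.09, the Tspo ligand Dbi by -0.52 ± 0.11 and the channel Vdac1 by -0.50 ± 0.09. Lipa rose by 2.41 ± 0.08, the endosomal cholesterol proteins Stard3 and Npc1 by 0.53 ± 0.09 and 0.47 ± 0.09, and Star as above. After quantile normalization Lipe was -0.34. Among these, leaving out 1 array ended some calls. Without DP replicate 1 they were those of Atad3a (-1.36), Lipe (-0.52), Dbi (-0.57), Vdac1 (-0.51), Stard3 (0.47) and Npc1 (0.45); without DP replicate 2, Dbi (-0.47), Vdac1 (-0.48) and Npc1 (0.49). Dbi was also lost without ProT replicate 1 (-0.56) or ProT replicate 2 (-0.48).

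The enzymes that share the electron chain of Cyp11a1 were dim. Of 5 measured mitochondrial P450 system genes, Fdx1 included, 0 were called between ProT and HSC by limma, beside 14.7% of all genes. An unadjusted limma p under 0.05 was found for 1 of the 5, beside 26.5% of all genes. All 5 lay below 7.17 on every array. Cyp11b1 and Cyp11b2, which finish corticosterone and aldosterone in the adrenal, spanned 0.38 and 0.31 log2 units over the 6 arrays. Cyp27a1, a sterol 27-hydroxylase, rose from 5.88 and 5.96 in ProT to 6.33 and 6.41 in DP, by 0.45 ± 0.08 (limma adjusted p = 0.00629); without DP replicate 2 this was 0.41 (adjusted p = 0.0563). Array probes can cross-hybridise between the near-identical copies of the Cyp11b and Hsd3b genes, so single members are uncertain.

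Of the enzymes downstream of Cyp11a1, Akr1c18 was called higher in ProT than HSC. Of 18 measured members 1 rose and 1 fell in ProT against HSC, 5.56% each way and near the 7.85% higher and 6.9% lower of all genes, and 12 lay below 7.17 on every array. The 5 measured Hsd3b genes, whose products turn pregnenolone into progesterone, lay between 4.51 and 5.28 on all arrays. By limma 0 were called in any comparison, nor had any an unadjusted p under 0.05. Of all genes 26.5% had such a p for ProT against HSC, 41.2% for DP against ProT and 42.8% for DP against HSC. Cyp17a1 and Cyp21a1, needed for androgens and for corticosteroids, spanned 0.18 and 0.29 log2 units. Akr1c18, the 20-alpha-hydroxysteroid dehydrogenase that inactivates progesterone and is known from T lymphocytes, was the member that rose. It gave 5.35 and 5.20 in HSC, 8.57 and 7.72 in ProT, and 6.86 and 6.37 in DP. The populations did not overlap: ProT was highest, by 2.87 ± 0.30 over HSC, at least 7.32-fold (limma adjusted p = 0.00213). DP against ProT was -1.53 ± 0.30 (limma adjusted p = 0.0111), and DP stayed 1.34 ± 0.30 above HSC (adjusted p = 0.0164). Its call against ProT was lost without DP replicate 2 (-1.29), and its call against HSC without HSC replicate 2 (1.27), DP replicate 1 (1.10) or DP replicate 2 (1.58). Hsd17b1, which makes estradiol, was lower in ProT than HSC by 0.47 on the log2 scale at a dim level (6.17 ± 0.07 against 6.63 ± 0.00).

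In DP against ProT 3 of the 18 enzymes rose and 2 (Akr1c18 and Sult2b1) fell, 16.7% and 11.1% beside 14.5% higher and 18.1% lower of all genes. Hsd11b1, which regenerates active glucocorticoid from its inert form, gave 8.62 and 9.55 in HSC, 8.53 and 8.60 in ProT, and 9.53 and 9.53 in DP. DP lay above ProT by 0.97 ± 0.28 (limma adjusted p = 0.0441), and 1 HSC array was as high as DP. H6pd, which supplies the NADPH for Hsd11b1, rose by 0.50 ± 0.08 and the electron carrier Cyb5a by 0.69 ± 0.08. Sult2b1, which sulfates cholesterol and pregnenolone, fell by 0.97 on the log2 scale after 0.70 ± 0.20 in the first step (limma adjusted p = 0.0756), which passed without ProT replicate 2 (adjusted p = 0.00769) and with the filter on dim genes (adjusted p = 0.0473). Without ProT replicate 1 the first-step difference of Sult2b1 was 0.39. The Hsd11b1 call was lost without ProT replicate 1 (0.93), ProT replicate 2 (1.01), DP replicate 1 (0.97) or DP replicate 2 (0.97). Sult2b1 in DP was lost without DP replicate 1 (-0.89) or DP replicate 2 (-1.05), and H6pd without DP replicate 2 (0.48).

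**Figure D3:**
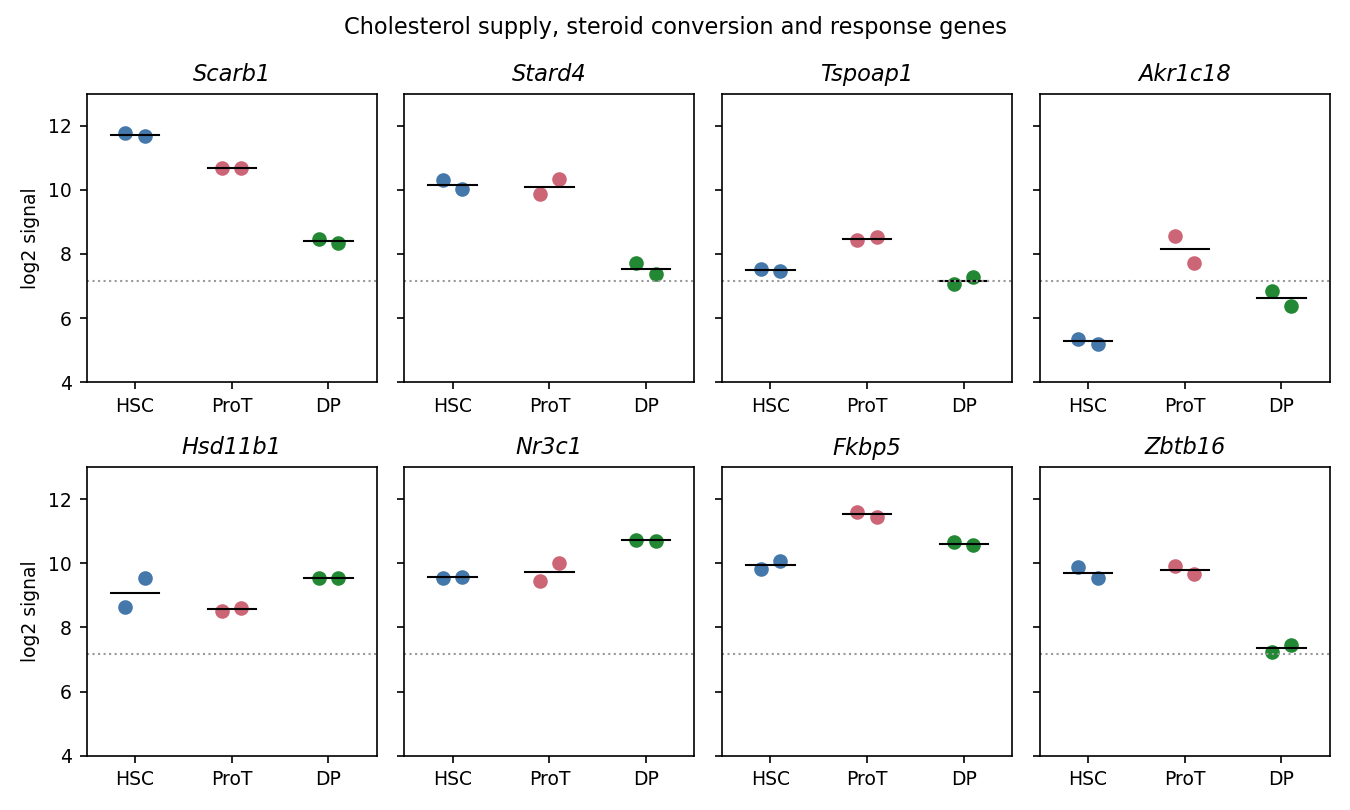
Log2 signal on the 6 arrays for 8 genes of cholesterol supply (Scarb1, Stard4, Tspoap1), steroid conversion (Akr1c18, Hsd11b1) and steroid response (Nr3c1, Fkbp5, Zbtb16); points are arrays, bars means, the dotted line 7.17. Scarb1 steps down from 11.72 to 10.69 to 8.39, Akr1c18 and Fkbp5 are highest in ProT (8.15 and 11.53), and Stard4 and Zbtb16 are low only in DP (7.54 and 7.34).

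Most regulators of steroid tissues were dim. Of 15 measured regulators, 10 lay below 7.17 on all arrays. Among them were Nr5a1, which spanned 0.05 log2 units over the 6 arrays, the corticotropin receptor Mc2r with its accessory protein Mrap, and the receptor Fshr. Between ProT and HSC 1 of the 15 rose and 1 fell, 6.67% each way beside 7.85% higher and 6.9% lower of all genes. Nr4a1, an orphan nuclear receptor that T cell receptor signals and hormones both induce, gave 8.03 and 8.31 in HSC, 10.06 and 10.01 in ProT, and 10.95 and 10.88 in DP, rising at each step (1.86 ± 0.11 and 0.88 ± 0.11; limma adjusted p = 0.000222 and 0.00197). Cebpb, a factor of myeloid and steroid cells, fell at each step (by 0.79 and 0.95 on the log2 scale). Between DP and ProT 4 rose and 1 fell, 26.7% and 6.67% beside 14.5% and 18.1% of all genes: beside Nr4a1 and Cebpb, the cyclic AMP factor Creb1 (1.29 ± 0.19), the general factor Sp1 (0.45 ± 0.08) and, at a dim level, Gata6 (0.24 ± 0.07). The Sp1 call was lost without DP replicate 1 (0.41). That of Gata6 was lost without ProT replicate 1 (0.24), ProT replicate 2 (0.24), DP replicate 1 (0.22) or DP replicate 2 (0.27), with the replicate block (limma adjusted p = 0.0827) and after quantile normalization (0.19, adjusted p = 0.103).

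Steroid receptors did not pass between ProT and HSC, with 0 of 8 measured called by limma; 2 of the 8 and 26.5% of all genes had an unadjusted p under 0.05. Nr3c1, the glucocorticoid receptor, gave 9.55 and 9.58 in HSC, 9.46 and 10.01 in ProT, and 10.73 and 10.70 in DP. The ProT arrays enclosed those of HSC, and DP was above ProT by 0.97 ± 0.18 (limma adjusted p = 0.00843); this was 0.96 without DP replicate 1 (adjusted p = 0.0712) and 0.99 without DP replicate 2 (adjusted p = 0.0682). The membrane-associated progesterone receptor component Pgrmc1 fell by 0.89 and the progesterone receptor Pgr, dim on all arrays, by 0.24. In DP against ProT 1 of the 8 receptors thus rose and 2 fell, 12.5% and 25% beside 14.5% and 18.1% of all genes. Pgrmc1 was lost without ProT replicate 1 (-0.87), DP replicate 1 (-0.82) or DP replicate 2 (-0.96). Pgr, with an adjusted p of 0.0497 by limma, was lost with any of the 6 arrays left out (between -0.27 and -0.21), with the replicate block (adjusted p = 0.0847) and after median centring (-0.13).

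Genes that glucocorticoids induce in many tissues went up in part. In ProT against HSC 4 of 10 rose and 0 fell, against 7.85% higher of all genes, with a list median of 0.41. Fkbp5, a chaperone of the glucocorticoid receptor, gave 9.83 and 10.06 in HSC, 11.61 and 11.44 in ProT, and 10.66 and 10.56 in DP. ProT was highest without overlap, with 1.58 ± 0.11 for ProT against HSC and -0.92 ± 0.11 for DP against ProT (limma adjusted p = 0.000459 and 0.00176). Ddit4, a stress-induced inhibitor of mTORC1, had the same order (1.43 ± 0.10, then -0.90 ± 0.10), Bcl2l11, the death gene BIM, rose by 1.28 ± 0.12 and Tsc22d3, the mediator GILZ, by 0.54 ± 0.11. In DP against ProT 3 rose, Sgk1 (0.91 ± 0.12), Nfkbia (0.82 ± 0.23) and Tsc22d3 (0.42 ± 0.11), and 4 fell, Zbtb16 (-2.44 ± 0.16), Klf9 (-1.72 ± 0.19), Fkbp5 and Ddit4. These are 30% and 40% of the list, beside 14.5% higher and 18.1% lower of all genes. Each of these genes answers to other signals as well, and no hormone was measured. Tsc22d3 in the first step was lost without HSC replicate 2 (0.44), ProT replicate 2 (0.44) or either DP array (0.54, limma adjusted p = 0.0849), and with the replicate block (adjusted p = 0.0504). In the second step it was 0.64 after quantile normalization, and lost without ProT replicate 1 (0.31), DP replicate 1 (0.36) or DP replicate 2 (0.47), and with the block (adjusted p = 0.0611). Nfkbia was lost without ProT replicate 2 (0.57), DP replicate 1 (0.76) or DP replicate 2 (0.88), and with the block (limma adjusted p = 0.0589).

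The iron-sulfur assembly genes, which build the cluster of Fdx1 and to which ferredoxins also give electrons, were in part lower in DP than ProT. Of 12 measured, 0 were called between ProT and HSC by limma, beside 14.7% of all genes. An unadjusted limma p under 0.05 was found for 2, beside 26.5% of all genes. In DP against ProT 5 fell and 0 rose, against 18.1% lower and 14.5% higher of all genes. The other 7 did not pass, and the difference between the steps was not tested. The 5 were the chaperones Hspa9 (-1.23 ± 0.10) and Hscb (-1.13 ± 0.12), the sulfur donor Nfs1 (-0.59 ± 0.09), and Glrx5 (-0.59 ± 0.13) and Nfu1 (-0.54 ± 0.08), which pass clusters on. The Glrx5 call was lost without ProT replicate 1 (-0.45), DP replicate 1 (-0.64) or DP replicate 2 (-0.54).

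The 8 genes nearest to Cyp11a1 in pattern were Psg17, Mcpt2, Klrb1b, Gzmc, Mcpt4, Avil, Igf2 and Socs2. Likeness was the Euclidean distance between log2 values centred on each gene's mean over the 6 arrays, and these arrays share 2 ProT libraries that make the shape, so it is a description. Psg17, of the pregnancy-specific glycoproteins, was nearest, at a distance of 0.50 (Pearson r = 0.998), with 5.69 and 4.93 in HSC, 11.24 and 10.79 in ProT, and 5.74 and 5.43 in DP. As with Cyp11a1, its HSC arrays lay apart by more than its DP arrays. The mast cell protease Mcpt2 followed at 0.70, the NK receptor gene Klrb1b at 0.77, the granzyme Gzmc at 0.85, the mast cell protease Mcpt4 at 0.86, the actin regulator Avil at 0.98, the growth factor Igf2 and, last, Socs2, a feedback inhibitor induced by STAT5. The proteases and granzymes are multigene families in which probes can cross-hybridise. By Pearson r alone, which ignores the size of the rise, 2 of the 8 (Psg17 and Socs2) were again among the nearest 8. Of the 8, 6 were in the promoter table. The AGGTCA of Cyp11a1 also occurred before a start of Klrb1b, Gzmc and Igf2, and not in the windows of Psg17, Mcpt4 and Avil. Of all promoter windows 14% held it, and genes with several starts have more windows in which it can occur. In Igf2 it lay before 1 of 4 starts, on the minus strand at 229 to 234 bases. The 2 windows of Klrb1b overlap.

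**Figure D4:**
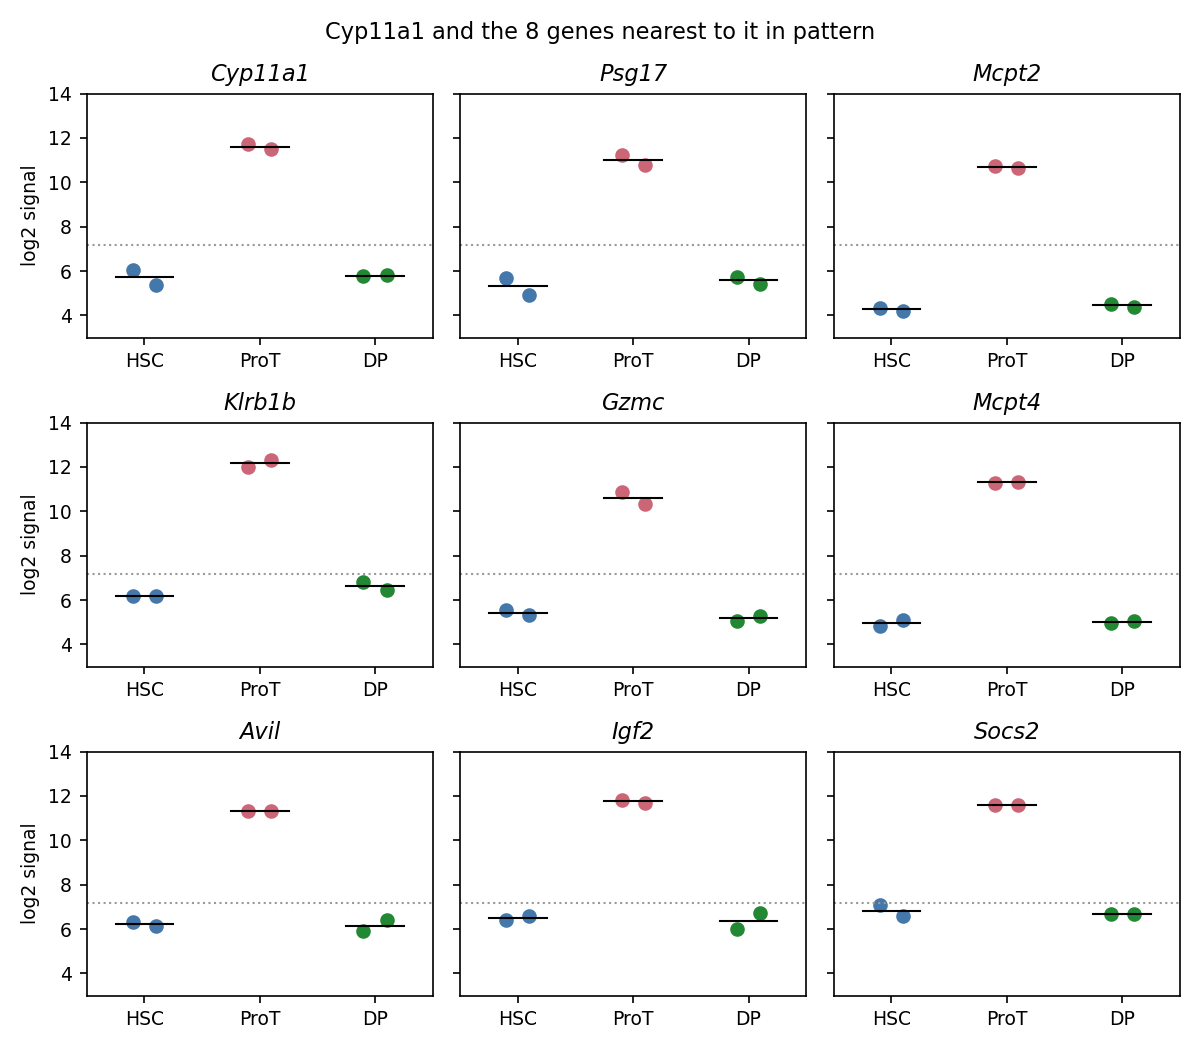
Log2 signal of Cyp11a1 and of the 8 genes with the smallest distance to it on the 6 arrays (points; bars are means of 2 arrays; dotted line, 7.17). In each panel both ProT arrays stand above 10 and the HSC and DP arrays below the dotted line; the smallest ProT value is 10.31, in Gzmc.

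Markers of 2 cell types known to carry Cyp11a1 peaked in ProT in part. Called as highest there were 8 of 15 mast cell and basophil genes and 9 of 13 type 2 lymphocyte genes, beside 4.17% of all genes. Both lists were chosen with earlier results of these data known, so their counts are a description. Mcpt2 and Mcpt4 of the mast cell list are also among the genes nearest to Cyp11a1. Of 15 measured mast cell and basophil genes, of which Kit and Gata2 also mark progenitors, 8 rose and 2 (Hdc and Mitf) fell in ProT against HSC, and 13 fell in DP against ProT. Of all genes 7.85% were higher and 6.9% lower at the first step, and 18.1% lower at the second. The mean log2 signal of the list was 7.26 to 7.49 on the HSC arrays, 9.06 to 9.08 in ProT and 5.95 to 5.97 in DP. Mcpt1 gave 4.89 and 4.96 in HSC, 12.55 and 12.48 in ProT, and 4.83 and 4.74 in DP, a ProT peak like that of Cyp11a1. Fcer1a, the IgE receptor chain, changed by 4.49 ± 0.09 and -4.63 ± 0.09, and the protease Cpa3 by 2.05 ± 0.14 and -4.45 ± 0.14. Defining genes were not all high. Tpsab1 was not called at either step (-0.03 ± 0.10 and 0.16 ± 0.10) and stayed below 7.17 on all arrays, as did Cma1, whose differences were 0.47 ± 0.11 and -0.49 ± 0.11. Hdc, which makes histamine, fell from 10.18 and 9.70 in HSC to 7.09 and 6.72 in ProT.

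Of 13 measured type 2 lymphocyte genes, 12 rose in ProT against HSC (all but Ptgdr2) and 0 fell, and 9 then fell and 2 rose in DP. These are 92.3% beside 7.85% of all genes higher at the first step, and 69.2% and 15.4% beside 18.1% lower and 14.5% higher at the second. The list mean was 6.07 to 6.12 in HSC, 8.49 to 8.62 in ProT and 7.68 to 7.71 in DP. Gata3, the factor of T cell and type 2 fate, gave 6.03 and 6.13 in HSC, 11.96 and 11.96 in ProT, and 11.28 and 11.18 in DP, and so stayed high where Cyp11a1 did not. The cytokine Il5 went from 4.85 and 4.90 to 7.56 and 7.82 and back to 5.09 and 5.18 (2.81 ± 0.10 and -2.55 ± 0.10; limma adjusted p = 4e-05 and 3.81e-05). Il13, named after its values were seen, changed by 2.17 ± 0.19 and -1.92 ± 0.19, the nuclear receptor Rora by 3.14 ± 0.20 and -2.58 ± 0.20, and the receptor Il9r by 2.84 ± 0.11 and -1.81 ± 0.11. Ccr4 (1.44 ± 0.09) and Il17rb (0.73 ± 0.20) were those that rose further in DP; the Il17rb call was lost without DP replicate 1 (0.75) or DP replicate 2 (0.72), and its difference was 0.42 without ProT replicate 1 and 1.05 without ProT replicate 2. Il4, Klrg1 and Ptgdr2 lay below 7.17 on all arrays. The part of mast cells, basophils or type 2 lymphocytes in the Cyp11a1 signal was not tested.

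**Figure D5:**
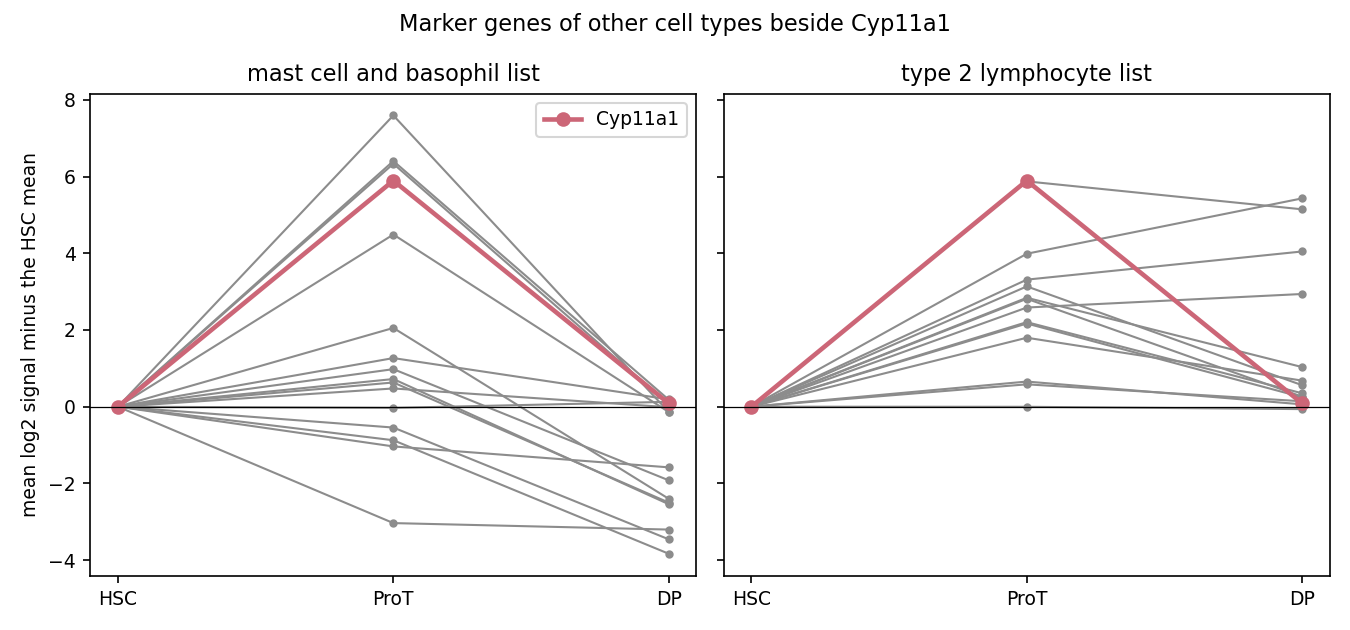
Mean log2 signal minus the HSC mean for Cyp11a1 (thick line) and for each measured gene of the mast cell and basophil list (left, 15 genes) and the type 2 lymphocyte list (right, 13 genes); 2 arrays a mean. Some mast cell lines peak in ProT and return like Cyp11a1, and 9 of the 13 type 2 genes are called as highest in ProT, of which Gata3 stays high in DP.

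Star was called higher in DP than ProT, and so were most listed genes of thymic epithelium and macrophages. The arrays do not show which cells a transcript came from. Of 12 thymic epithelial genes, 10 rose and 1 (Epcam) fell in DP against ProT, beside 14.5% and 18.1% of all genes, with a list mean of 7.14 in ProT and 8.30 to 8.34 in DP. Ccl25, the chemokine of thymic epithelium, rose by 3.63 ± 0.13 (1.86 with its 2 probe sets averaged), the thymic protease Prss16 by 2.59 ± 0.09 and the keratin Krt18 by 2.33 ± 0.11, whereas Foxn1, Psmb11, Krt5 and Krt14, of which the first 3 rose by 0.79 ± 0.07, 0.85 ± 0.07 and 0.78 ± 0.12, stayed below 7.17 on all arrays. Of 10 macrophage genes 7 rose and 2 (Adgre1 and Cd68) fell, beside the same shares of all genes, with list means of 6.89 to 7.07 in ProT and 7.45 to 7.51 in DP; C1qb, a complement chain, rose by 3.13 ± 0.21 and Adgre1 (F4/80) changed by -3.98 ± 0.31. The part of epithelial cells or macrophages in the Star, Hsd11b1 and Lipa signals of DP was not tested.

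The defining markers of ProT and DP followed the labels. All 7 measured pro-T markers rose in ProT against HSC, beside 7.85% of all genes. All 7 measured double positive markers rose in DP against ProT, beside 14.5% of all genes. Of the latter, 2 were also called higher in ProT than HSC, Rag1 (1.09 ± 0.15) and Ptcra (1.74 ± 0.11). Of the pro-T markers, 4 fell and 2 rose in DP against ProT. Of 8 progenitor markers, the myeloid genes Csf3r (-4.98 ± 0.12) and Mpo (-4.17 ± 0.48) fell in ProT against HSC. Kit (0.72 ± 0.10) and Cd33 (0.65 ± 0.14) rose, and Cd34, Flt3, Meis1 and Gata2 did not pass. These calls are 25% each way, beside 6.9% lower and 7.85% higher of all genes. Replicate arrays correlated at r = 0.991 in HSC, 0.995 in ProT and 0.997 in DP over all probe sets. By limma, 2940 genes passed for ProT against HSC, 6506 for DP against ProT and 6953 for DP against HSC. After median centring of the arrays, the median DP against ProT difference over all genes was 0.13 in place of 0.02, which turned 2899 higher and 3607 lower genes into 4522 and 2987. The same centring changed ProT against HSC from 1565 higher and 1375 lower to 1321 and 1821. The DP against ProT counts were 1467 and 2280 without DP replicate 1 and 1484 and 2047 without DP replicate 2, and 1013 and 779 genes were called for ProT against HSC without either DP array. The DP against HSC counts, 3195 higher and 3758 lower, were 1982 higher without DP replicate 1 and 1940 and 2361 without DP replicate 2. The number of arrays, 2 a population, limits the precision throughout.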

How the data were processed

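Total RNA of 6 mouse samples, 2 each of HSC, ProT and DP, was labelled with biotin and hybridised to Affymetrix gene arrays. The deposited values are log2 signals of 35556 probe sets, which the authors made with RMA and Partek per the submitters' processing notes, with versions not given in the sources used here. RMA scales arrays to each other, so a shift of all genes would be removed. A platform table linked 21789 probe sets to 1 gene (1621 had several and 12146 none), and the probe set with the highest mean stood for each of 19938 genes. All 6 arrays were fitted together in limma 3.58.1 (R 4.3.3; lmFit, eBayes; 3 residual and 2.83 prior degrees of freedom), with Benjamini-Hochberg adjustment over all genes and a threshold of 0.05. No filter was applied. On simulated arrays laid out as ProT against HSC (19938 genes), 50 genes at each size were changed and the residual spreads were shuffled over genes. Of genes changed by 0.5, 1, 2 and 4 log2 units, 22%, 68%, 94% and 100% were called, and 3 of 145 calls were unchanged genes. In the data 14.7% of genes were called for ProT against HSC, a larger share than was changed here, so these rates need not hold for the data.

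Members and gene lists were chosen with earlier results of these data known. From each list the text names up to 6 called and 3 uncalled genes by the larger step, all stage markers, the 8 genes nearest to Cyp11a1 with a proper symbol, and members of counts of 5 or fewer. Some genes outside this rule are named as well, among them Il13, Lipe, Dbi, Vdac1, Cyp17a1, Nr5a1, Mc2r, Mrap and Fshr. As alternatives, each array was left out, dim genes were filtered, arrays were median-centred or quantile-normalized again, the replicate number was a block, probe sets were averaged, 2 populations were fitted alone, a trended robust prior was used and Pearson r replaced the distance. Python 3.11.15 with pandas 2.3.3 prepared the tables.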

Additional observations from a re-analysis of the deposited data

How the results depend on the processing

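Of 92 gene differences, 61 counted as unchanged under every alternative run. Unchanged meant the same direction and the same side of the threshold. For Cyp11a1, which was given no test, it meant a shift within the replicate spread. Over 1183 values, 1099 were unchanged, 71 lost a call, 8 gained one and 4 turned sign. The remaining 1, Cyp11a1 for DP against ProT after median centring (-5.69), moved beyond the replicate spread. The sign turned for differences near 0: Nr5a2 for ProT against HSC was -0.0496 after median centring and from -0.0269 to 0.0919 with 1 array left out, and Fdx1 for DP against ProT was from -0.0412 to 0.0719 with 1 array left out. Cyp11a1 for DP against HSC, 0.0858 with all arrays, ran from -0.2614 to 0.433 with 1 array left out. Its sign thus turned too, within the replicate spread, and it counted as unchanged. The cause was not tested. After median centring, 9 pathway genes were lower in ProT than HSC, 4522 genes higher in DP than ProT, and 473 genes, 2 of them pathway genes, lowest in ProT. Fits of 2 populations alone, with fewer samples, gave 1013 higher and 779 lower genes for ProT against HSC. Ranking by Pearson r shared 2 of the 8 nearest genes.

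With 1 array left out, ProT against HSC had 1013 to 1988 genes higher and 779 to 1994 lower (pathway 6 to 9 and 4 to 11). DP against ProT had 1467 to 3282 higher and 2047 to 4126 lower (pathway 7 to 17 and 13 to 22), and DP against HSC 1940 to 3188 and 2361 to 3862 (pathway 10 to 18 and 11 to 22). From 494 to 1090 genes were highest in ProT and 80 to 496 lowest (pathway 3 to 6 and 1 to 3). A population left with 1 array was assumed to vary like the others.

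Same-numbered samples did not deviate together over all genes (correlations 0.06, -0.02 and -0.04). With 2 arrays a population, this cannot show whether they share a culture, mouse or batch. With the replicate block, ProT against HSC gave 1534 genes upward and 1311 downward, with 2722 and 3546 in DP against ProT, and 3060 and 3697 in DP against HSC; of the 92 differences 5 lost and 1 gained a call. Signals below 7.17 were not shown to be above background, which limits Star, Fdx1 and Nr5a2.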
